A study of Mus musculus with 3 samples.

Results

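Collagens are the triple-helical proteins of the extracellular matrix, and each is built from 3 chains encoded by separate genes or by copies of 1 gene. The chain genes were taken as every entry whose symbol reads Col, a number, the letter a and a number, which found 44 of the 49492 entries measured in mouse liver. Of these, 27 reached 1 CPM (a count scaled to the size of its library) in at least 1 library, and 17 did not. The rule used symbols alone and no measured value.

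In healthy liver, collagen lies mainly in the portal tracts, around vessels and, sparsely, in the space between hepatocytes and the sinusoidal endothelium. Fibrillar types I and III form cable-like fibres, type IV forms the sheets of basement membranes, and type VI forms fine beaded filaments near cells. Hepatic stellate cells and portal fibroblasts are the known main sources of fibrillar collagen, and an increase in types I and III is the textbook feature of liver fibrosis. Type XVIII is unusual, since hepatocytes themselves are a known source of it.

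RNA from livers of CD-1 mice, an outbred strain, was sequenced in 3 libraries. The control library came from mice given phosphate-buffered saline (PBS). The other libraries came from mice given ZnO (zinc oxide) nanoparticles, dispersed by sonication, at a daily oral dose of 25 mg/kg b.w. for 8 weeks in 1 library and for 12 weeks in the other. The sources used here give neither the animals' age and sex, nor how many animals made up a library, nor when the control was taken. The study's title concerns insulin resistance, and the comparisons below ask how collagen transcripts stood in the liver at each time. With 1 library per group there is no replicate check of any difference and no p-value is given. Intervals are exact (Clopper-Pearson for ratios, Poisson for sums) 95% intervals, and they cover counting error only, not the variation between animals.

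The libraries held 13614979 (control), 14258770 (8 weeks) and 13263211 (12 weeks) counts. A gene at 0 counts could have had up to 0.221, 0.209 and 0.227 CPM, the value of 3 counts, in the same order. Of 15 Kupffer cell markers, 15 were at least 2-fold higher at 8 weeks and 14 at 12 weeks. The 12 skeletal muscle markers summed to 32 (control), 2896 (8 weeks) and 23 (12 weeks) counts. Of these, 7 had 0 counts in the control, and 5 had 0 counts at 12 weeks. The 9 hepatocyte markers found were abundant in all libraries, at 40219, 51198 and 52874 CPM in sum, as the liver label requires.

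Collagen chains as a group took up a small share of the transcripts. Their summed level was 1364 CPM in the control (interval 1345 to 1384), 1510 CPM at 8 weeks (1490 to 1530) and 1613 CPM at 12 weeks (1591 to 1634), or 0.136%, 0.152% and 0.161% of counts. A single gene, Col18a1, supplied 71.9%, 65.1% and 68.6% of that level. Without it the sum was 383 CPM in the control, 527 CPM at 8 weeks and 507 CPM at 12 weeks. That remainder was 1.38-fold (1.33 to 1.43) and 1.32-fold (1.28 to 1.37) the control level. In bulk liver, fewer cells of a type and less RNA per cell cannot be told apart, so each value below is a level of the whole tissue.

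**Figure D1:**
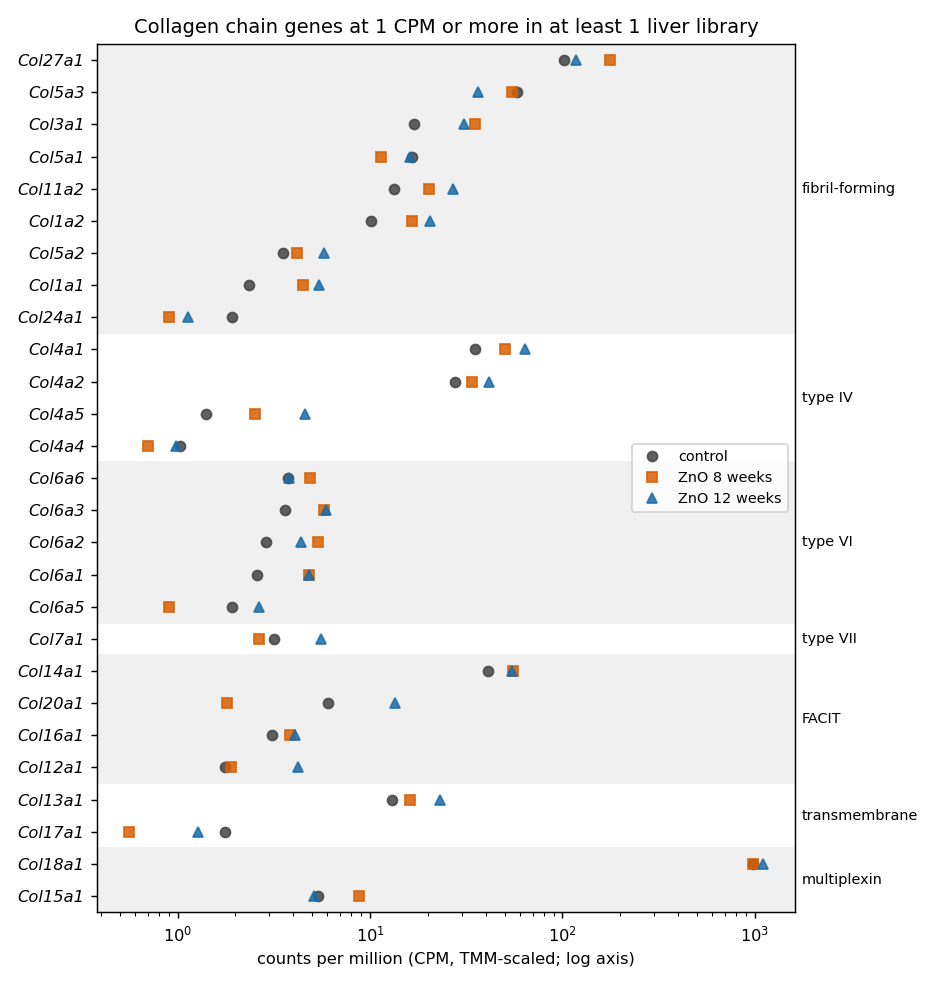
Level of each of the 27 collagen chain genes that reached 1 CPM, in CPM on a log axis, grouped by structural class; a circle, a square and a triangle mark the control, 8-week and 12-week libraries. Col18a1 stands far to the right at 981 to 1106 CPM, and most other genes lie between 1 and 100 CPM in every library.

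Levels between genes are compared here per kilobase of exon length as the files list it. On that scale Col18a1 came first in the control at 139.8 CPM per kb, followed by Col5a3 at 8.57, Col27a1 at 7.85, Col14a1 at 5.86, Col4a1 at 4.69 and Col4a2 at 4.16. The classic fibrillar chains stood lower, with Col3a1 at rank 10 and 1.73, Col1a2 at 0.813 and Col1a1 at 0.359 CPM per kb. Col27a1 and Col3a1 moved up at 8 weeks, to 13.5 and 3.57 CPM per kb. Per kilobase, the control liver thus held far more transcript of the basement membrane collagen XVIII than of the scar-forming types.

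Stretches just before the RefSeq start sites of 4 fibril-forming genes are shown here as examples. Each of these genes had a count ratio interval clear of 1 in at least 1 comparison, though only Col3a1 passed 2-fold. The stretches overlap no annotated exon. Each gives the 150 bases before the start (RefSeq, GRCm38.p6), 5′ to 3′ along the gene. For Col27a1 the RefSeq start, 63215412, lies inside the gene model used for counting, which begins at 63214004. For Col11a2 it is 34039138, before the model's start at 34039437. Capitals mark matches, on either strand, to a TATA box, a GC box, a CCAAT box or a metal response element, the site type of the zinc-sensing factor Mtf1.
Col3a1, chr1:45311388-45311537, plus strand: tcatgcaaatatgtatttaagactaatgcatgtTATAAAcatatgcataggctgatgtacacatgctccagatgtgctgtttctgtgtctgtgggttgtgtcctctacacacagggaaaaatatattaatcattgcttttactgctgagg
Col27a1, chr4:63215262-63215411, plus strand: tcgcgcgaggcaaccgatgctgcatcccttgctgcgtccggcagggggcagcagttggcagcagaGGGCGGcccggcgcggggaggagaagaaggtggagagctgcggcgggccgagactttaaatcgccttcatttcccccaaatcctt
Col11a2, chr17:34038988-34039137, plus strand: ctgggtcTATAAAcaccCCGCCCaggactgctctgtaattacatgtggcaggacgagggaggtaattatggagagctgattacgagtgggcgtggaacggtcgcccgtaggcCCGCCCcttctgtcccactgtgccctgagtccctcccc
Col5a3, chr9:20815068-20815217, minus strand: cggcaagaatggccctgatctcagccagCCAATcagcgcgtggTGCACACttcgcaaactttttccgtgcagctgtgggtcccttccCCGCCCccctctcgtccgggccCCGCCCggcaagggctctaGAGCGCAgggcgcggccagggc

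The Col3a1 stretch is poor in G and C and holds no GC box, while those of Col27a1, Col11a2 and Col5a3 hold at least 1. Over the 250 bases before the start, 35 of the 44 collagen genes had 38 promoters in the RefSeq table. A GC box, spelled GGGCGG, was found in 22 of the 38 (57.9%), against 32.7% of all 32851 promoters in the table. A CCAAT box, spelled as its name, was found in 34.2% against 33.8%. A TATA box, spelled TATAAA, was found in 13.2% against 12.4%. The metal response element spelled TGCGCNC was found in 9 of the 38 (23.7%) against 12.5% of all. Its other spelling, TGCACNC, was found in 4 (10.5%) against 10.4%. Both strands were searched. The median CpG count was 9.5 in collagen promoters and 6 in all. These are matches of letters only.

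The first comparison set the 8-week library against the control. Col3a1, the chain of type III collagen that forms fine reticular fibres, was the 1 collagen gene at least 2-fold higher, and Col20a1, a fibril-associated chain, was the 1 at least 2-fold lower. Of all 14585 genes at 1 CPM or more, 4.15% were higher and 2.1% lower by that rule, so the 1 in 27 each way is near the background. Smaller differences leaned one way: 19 of the 27 had a log2 ratio of CPM + 1 above 0, against 48.4% of all genes, and the median was 0.29 against -0.02. The interval of the count ratio lay above 1 for 14 of 27 (23.6% of all genes) and below 1 for 5 (24.2%), namely Col5a1, Col6a5, Col17a1, Col20a1 and Col24a1. All 27 had at least 1 CPM in the control, so none was kept through a treated library alone. Over all 44 chain genes, most of the added ones near 0 counts, the median was 0.14.

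The second comparison set the 12-week library against the same control. Col20a1 and Col4a5, a basement membrane chain, were at least 2-fold higher, and 0 collagen genes were at least 2-fold lower. The background was 3.11% higher and 1.34% lower. The median log2 ratio was 0.57 against -0.01 over all genes, and 21 of 27 collagen genes were above 0, against 48.9% of all. The interval lay above 1 for 17 of 27 (21% of all genes) and below 1 for 1, Col5a3 (22.4%). Among the 12 collagen genes above 10 CPM in some library, 10 had an interval above 1, against 24.8% of all genes in that range. Among the 15 that stayed between 1 and 10 CPM, 7 did, against 15.5%. Over all 44 the median was 0.18.

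The third comparison set 12 weeks against 8 weeks. Col20a1 was the 1 gene past 2-fold, higher at 12 weeks, against a background of 1.28% higher and 1.23% lower. Of the 27 genes, 20 had a log2 ratio above 0 (49.9% of all genes), with a median of 0.24 against 0.00. The interval lay above 1 for 12 (19% of all genes) and below 1 for 3, Col5a3, Col15a1 and Col27a1 (19.2%). These comparisons are not independent of each other, since each pair shares a library. With 5 CPM added in place of 1 CPM, 0 genes remained past 2-fold against the control at either time.

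**Figure D2:**
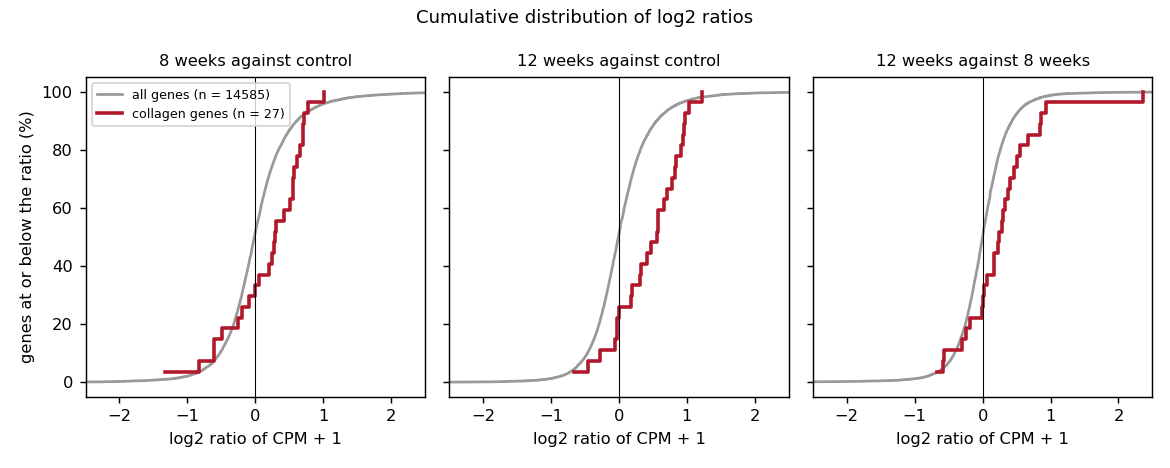
Cumulative share of genes (%) against the log2 ratio of CPM + 1 for the 27 collagen genes (red) and all 14585 genes (grey), 1 panel per comparison, with the tails of all genes lying outside the axis. The red curve runs to the right of the grey one over most of each panel, with medians of 0.29, 0.57 and 0.24 against values near 0.

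The fibril-forming chains include the scar collagens. Col3a1 (chromosome 1, 45311538 to 45349706, plus strand) had 16.95 (control), 35.0 (8 weeks) and 30.7 (12 weeks) CPM. Both treated libraries stood above the control, with log2 ratios of 1.01 (interval 0.82 to 1.28) and 0.82 (0.62 to 1.10). Its promoter stretch is the one with the TATA box and no GC box shown above.

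Type I collagen is a trimer of Col1a1 and Col1a2 chains. Col1a2 (chromosome 6, 4504814 to 4541544, plus strand) had 10.1, 16.5 and 20.5 CPM in the control, 8-week and 12-week libraries, with ratios of 0.65 (0.40 to 1.02) and 0.96 (0.72 to 1.33). Col1a1 (chromosome 11, 94936224 to 94953042, plus strand) had only 32, 64 and 72 counts. Its ratios of 0.70 (0.29 to 1.58) and 0.94 (0.59 to 1.85) resembled those of its partner, with wider intervals. Per kilobase, Col1a2 exceeded Col1a1 by 2.26-fold (1.53 to 3.44) in the control, 1.95-fold (1.47 to 2.61) at 8 weeks and 1.995-fold (1.53 to 2.62) at 12 weeks, although the protein uses more Col1a1 than Col1a2 chains.

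The 3 genes of types I and III together had 29.4 CPM in the control (26.6 to 32.4), 56.0 CPM at 8 weeks (52.2 to 60.0) and 56.7 CPM at 12 weeks (52.7 to 60.9). That sum was 1.90-fold (1.69 to 2.15) and 1.93-fold (1.71 to 2.18) the control level, and 12 weeks against 8 weeks gave 1.01 (0.916 to 1.12). The summed level was therefore about the same at both times. Its members differed at 12 weeks against 8 weeks: Col1a2 had 0.30 (0.06 to 0.58), Col1a1 0.24 (-0.22 to 0.79) and Col3a1 -0.18 (-0.38 to 0.00). Beside that sum, 15 stellate cell markers summed to 298, 327 and 356 CPM. The 13 fibroblast and myofibroblast markers summed to 20.2, 26.2 and 28.9 CPM, with 1 of the 13 at 0 counts in each library. Their part in the result was not tested.

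Other fibril-forming chains went separate ways. Col27a1 (chromosome 4, 63214004 to 63334991, plus strand), a fibrillar chain best known from cartilage, had 102, 176 and 117 CPM in the same order. The 8-week library stood well above the others, with a ratio of 0.78 (0.69 to 0.88) against 0.19 (0.09 to 0.30) at 12 weeks. Cartilage and bone markers were at or near 0: of the 8, all but Runx2 had 0 counts in the control and 12-week libraries, and 6 had 0 counts in the 8-week library. Runx2 had 7, 9 and 18 counts.

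Type V collagen sits inside type I fibrils and limits their width, and its 3 genes did not move together. Col5a3 (chromosome 9, 20770050 to 20815067, minus strand) had 58.4, 54.4 and 36.4 CPM, a ratio of -0.10 (-0.25 to 0.04) at 8 weeks and -0.67 (-0.85 to -0.52) at 12 weeks. It was the one abundant chain that was lower at 12 weeks. Col5a1 had 16.5, 11.4 and 16.1 CPM, lower at 8 weeks (-0.49, interval -0.83 to -0.23) and close to the control at 12 (-0.04, -0.32 to 0.24). Col5a2 had 48, 60 and 76 counts, with ratios of 0.19 (-0.33 to 0.82) and 0.57 (0.16 to 1.25). Per kilobase, Col5a3 exceeded Col5a1 by 4.41-fold in the control, 5.92-fold at 8 weeks and 2.82-fold at 12 weeks.

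Col11a2 (chromosome 17, 34039437 to 34066685, plus strand), whose chain nucleates cartilage fibrils, had 13.3, 20.2 and 27.03 CPM. Its ratios were 0.57 (0.34 to 0.89) and 0.97 (0.76 to 1.29), and the 3 libraries did not overlap within counting error. Its usual partners in cartilage were absent or nearly so, with 0 counts of Col2a1 in every library and 1, 2 and 2 counts of Col11a1. Col24a1 had 26, 13 and 15 counts, with a ratio of -0.61 (-2.16 to -0.07) at 8 weeks and an interval across 0 at 12 weeks.

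**Figure D3:**
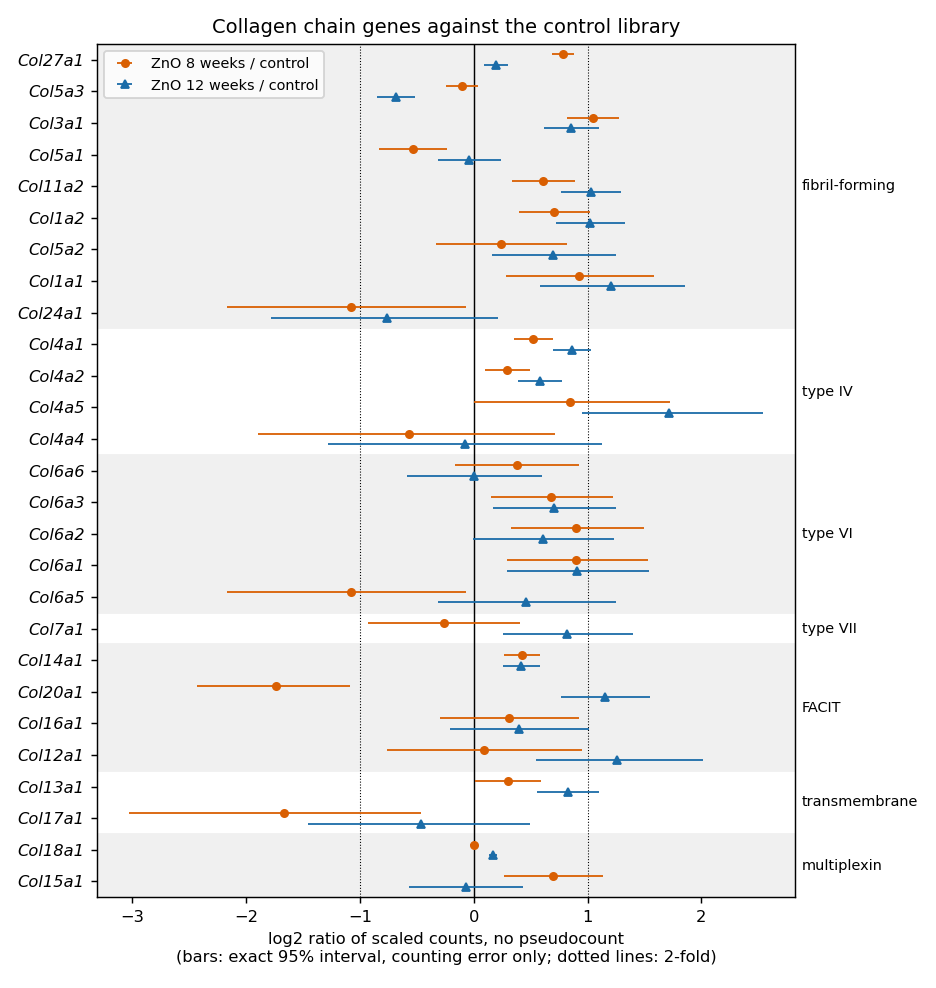
Log2 ratio of scaled counts to the control, without the added CPM, for the 27 genes at 8 weeks (orange circles) and 12 weeks (blue triangles); bars are exact 95% intervals for counting error, dotted lines mark 2-fold, and shading separates structural classes. The type I, III and IV chains other than Col4a4 lie right of 0 at both times, and Col20a1 lies on opposite sides.

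Type IV chains make the network of basement membranes. Col4a1 (chromosome 8, 11198423 to 11312826, minus strand) had 35.0, 50.3 and 63.7 CPM, and Col4a2 (chromosome 8, 11312805 to 11449287, plus strand) had 27.6, 33.8 and 41.3 CPM. Both were lowest in the control and highest at 12 weeks. Their ratios were 0.51 (0.35 to 0.69) and 0.29 (0.10 to 0.49) at 8 weeks, and 0.84 (0.70 to 1.03) and 0.57 (0.39 to 0.78) at 12 weeks. The pair starts head to head, and the gene models overlap by 22 bases, so a few reads at the shared start could count for either. Summed, the pair had 62.6, 84.2 and 105 CPM, and 12 weeks was 1.25-fold (1.15 to 1.35) the 8-week level. Beside it, 15 liver endothelial markers summed to 417, 529 and 499 CPM. Their part in the result was not tested.

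Col4a5 (chromosome X, 141475385 to 141689234, plus strand) had 19, 36 and 61 counts, or 1.40, 2.51 and 4.61 CPM. Its ratio at 12 weeks was 1.22, with a count ratio interval of 0.95 to 2.54, and at 8 weeks 0.55 (0.00 to 1.73). Its head-to-head neighbour Col4a6, 1308 bases away, had 3, 3 and 2 counts, too few to show whether it differed: its log2 interval at 12 weeks was -4.13 to 2.58. Col4a3 and Col4a4, another head-to-head pair 71 bases apart, had 9, 13 and 10 counts and 14, 10 and 13 counts. No difference was detectable for either.

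Type VI collagen is made of Col6a1, Col6a2 and a further chain, usually Col6a3. These had 35, 69 and 64 counts (Col6a1), 39, 77 and 58 counts (Col6a2) and 49, 83 and 78 counts (Col6a3). All 3 were lowest in the control. Their sum of 9.07, 16.0 and 15.1 CPM was 1.76-fold (1.41 to 2.21) the control level at 8 weeks and 1.67-fold (1.32 to 2.103) at 12 weeks. Of their 6 ratios to the control, 5 had intervals clear of 0, and that of Col6a2 at 12 weeks (0.47) just reached 0.

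The chains that can replace Col6a3 lie side by side on chromosome 9. Col6a6 had 51, 70 and 50 counts, and neither ratio was clear of 0 (0.31 and 0.01). Col6a5 had 26, 13 and 35 counts, with -0.61 (-2.16 to -0.07) at 8 weeks and 0.32 (-0.31 to 1.25) at 12 weeks. Col6a4 had 2, 0 and 0 counts. Type VI and type I and III chains are also made in the connective tissue of muscle, and the skeletal muscle markers stood at 202 CPM in sum at 8 weeks against 2.36 in the control and 1.74 at 12 weeks. In the 12-week library the sum of Col6a1 to Col6a3 was 15.1 CPM and that of types I and III was 56.7 CPM, as given above. Col27a1 and Col15a1 stood higher in the 8-week library than in both others. The part of the muscle signal in the 8-week values of all these chains was not tested.

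Fibril-associated chains coat the surface of fibrils. Col14a1 was the most abundant, with 41.1, 55.3 and 54.9 CPM and ratios of 0.42 (0.27 to 0.59) and 0.41 (0.26 to 0.58), nearly the same at both times. Col12a1 had 24, 27 and 56 counts. Its ratio was 0.06 (-0.76 to 0.95) at 8 weeks and 0.92 (0.54 to 2.01) at 12 weeks, so only the last library stood apart. Col16a1 had 42, 55 and 54 counts, with both intervals across 0.

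Col20a1 (chromosome 2, 180986535 to 181017540, plus strand) spread more widely than any other chain at 1 CPM or more. Its counts were 82.5, 26 and 177.5 in the control, 8-week and 12-week libraries, or 6.04, 1.81 and 13.4 CPM. The ratio was -1.32 (-2.43 to -1.08) at 8 weeks and 1.04 (0.77 to 1.55) at 12 weeks, and 2.36 (2.29 to 3.54) between the treated libraries. Its gene model shares 79 bases with 9230112E08Rik on the same strand, which had 47.5, 25 and 47.5 counts. Of the 44 chain genes it is also the only one whose start or end differs from the GENCODE M21 annotation. With an added 5 CPM its ratios against the control were no longer past 2-fold.

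The multiplexins lie in the basement membrane zone, and both carry a fragment that can be released as an inhibitor of vessel growth (endostatin from Col18a1). Col18a1 (chromosome 10, 77052178 to 77166548, minus strand) had 981, 982 and 1106 CPM. Its ratio was 0.00 (-0.03 to 0.04) at 8 weeks and 0.17 (0.14 to 0.21) at 12 weeks, the narrowest intervals of all chains. Col15a1 had 73, 125 and 67.5 counts, higher at 8 weeks (0.61, 0.27 to 1.13) and not at 12 weeks (-0.06, -0.57 to 0.43).

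Transmembrane collagens are anchored in the cell membrane. Col13a1 (chromosome 10, 61838236 to 61979108, minus strand), which takes part in cell adhesion, had 13.04, 16.1 and 23.2 CPM, with ratios of 0.28 (0.01 to 0.59) and 0.78 (0.56 to 1.10). Col17a1, a hemidesmosome chain of epithelia, had 24, 8 and 17 counts. It was lower at 8 weeks (-0.83, -3.03 to -0.46), and its interval at 12 weeks crossed 0. The 8 bile duct markers, an epithelium of the liver, summed to 61.7, 39.9 and 51.3 CPM, lowest in the same library; their part was not tested. Col7a1, which forms the anchoring fibrils under epithelia, had 43, 38 and 74.5 counts, with -0.19 (-0.93 to 0.41) and 0.66 (0.26 to 1.40).

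The other 17 chain genes stayed below 1 CPM everywhere. Together they had 36, 56 and 39 counts, and the highest single value was 14, for Col8a1 at 8 weeks. At 0 counts in all 3 libraries were 4 of them, Col2a1, Col9a1, Col9a2 and Col26a1. Col8a1, a short-chain network collagen of vessel walls, had 8, 14 and 1 counts, Col9a3 had 5, 10 and 7, and Col23a1 had 3, 9 and 10. Apart from these and Col4a3, whose counts are given with type IV, the rest had at most 4 counts in a library, and no difference in them was detectable at this depth.

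Genes that build, cut, bind or accompany collagen were read from lists of related genes. Of 18 folding and modification enzymes at 1 CPM or more, 1 was at least 2-fold higher at both times and 0 were lower, with medians of 0.04 and 0.05. That gene was P4ha1, a catalytic subunit of prolyl hydroxylase, with 9.43, 31.9 and 21.7 CPM and ratios of 1.66 (1.47 to 2.05) and 1.12 (0.90 to 1.52). Another catalytic subunit, P4ha2, went the other way, with 10.6, 7.33 and 6.27 CPM. The P4ha2 ratios were -0.48 (-0.91 to -0.16) and -0.68 (-1.17 to -0.36). P4hb, the partner of these subunits and a general disulfide isomerase, had 1045, 1074 and 1063 CPM. The collagen chaperone Serpinh1 had 42, 46 and 84 counts, with 0.04 (-0.58 to 0.69) and 0.84 (0.48 to 1.61).

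Of 7 genes of propeptide processing and cross-linking, 0 passed 2-fold in either direction (medians 0.32 and 0.18). The propeptide protease Bmp1 had 93.9, 97.4 and 93.5 CPM. Of 9 genes of collagen breakdown and its inhibitors, 1 was higher at 8 weeks and 3 at 12 weeks, with 0 lower (medians 0.27 and -0.07). Ctsk was past 2-fold at both times, and Mmp12 and Timp3 at 12 weeks. Ctsk and Mmp12 were below 1 CPM in the control, so the filter kept them only through the treated libraries where they were high. The protease Ctsk had 0, 22 and 15 counts, and the macrophage elastase Mmp12 had 3, 16 and 35. The inhibitor Timp3 had 25.6, 49.4 and 55.9 CPM, with 0.92 (0.76 to 1.14) and 1.10 (0.94 to 1.32). Ctsk and Mmp12 are known from macrophages, and the Kupffer cell markers summed to 107, 437 and 336 CPM with a median ratio of 1.87 and 1.47. Their part in these values was not tested.

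Of 6 collagen receptors, 0 passed 2-fold (medians 0.43 and 0.44). The integrin subunit Itgb1 had 278, 315 and 279 CPM and Itga1, which pairs with it to bind collagen, had 15.8, 21.5 and 19.3. Of 25 other matrix proteins, 1 was higher at 8 weeks, 0 at 12 weeks, and 0 were lower (medians 0.22 and 0.22). That gene was Fmod, a small proteoglycan on collagen fibrils abundant in tendon, with 3, 27 and 1 counts. Its count ratio at 8 weeks was 8.52 (log2 interval 1.39 to 5.46). It shared the 8-week library with the muscle markers, and it was kept through that library alone. Fibronectin, Fn1, had 825, 1100 and 1225 CPM.

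Of 18 TGF-beta ligands, receptors and targets, the main known drive of fibrillar collagen expression, 0 passed 2-fold at either time (medians 0.20 and 0.22). The receptor Tgfbr1 had 55.3, 52.7 and 45.2 CPM. The ligand Tgfb1 had 85, 147 and 116 counts, with 0.63 (0.32 to 1.11) and 0.43 (0.07 to 0.90), and its target Ctgf had 6.63, 12.8 and 11.9 CPM. Among stellate cell markers 0 of 15 passed 2-fold (medians 0.27 and 0.36), and among fibroblast and myofibroblast markers 0 of 8 did (0.49 and 0.52). Acta2, the actin of activated stellate cells, had 8, 11 and 5 counts, below 1 CPM and so not among the 8. Of the 8, Tagln had 46.5, 102 and 68 counts, with 0.89 (0.55 to 1.61) and 0.48 (0.04 to 1.17). Myh11 (0.46 and 0.62), Cd34 (0.52 and 0.75) and Dpt (0.81 and 0.56) were also higher at both times. Eln was lower at both times (-0.43 and -0.43). Pdgfra (-0.50 and 0.40) and Thy1 (-0.17 and 0.56) were lower at 8 weeks and higher at 12 weeks. Mfap4 went the other way (0.65 and -0.15). Cd34, Dpt, Thy1 and Mfap4 were below 1 CPM in the control, so only a treated library kept them. Liver endothelial markers had 1 of 15 higher at both times, the hyaluronan receptor Lyve1 (1.07 and 1.17), with medians of 0.40 and 0.38.

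Hepatocyte markers had 0 of 9 past 2-fold (medians 0.24 and 0.44). Bile duct markers had 1 of 5 lower at 8 weeks, Sox9 (-1.52), and 0 at 12 weeks (medians -0.30 and -0.08). Skeletal muscle markers had 10 of 10 higher at 8 weeks and 0 at 12 weeks (medians 3.73 and -0.03). All of these 10 but Mylpf reached 1 CPM only in the 8-week library. The filter thus kept them through the library where they were high, which favours a count of 10 of 10. Adipocyte markers had 1 of 2 lower at 8 weeks, Cidec (-1.45), and 0 at 12 weeks. Of the cartilage and bone markers and of the mesothelial markers, 1 each reached 1 CPM, Runx2 and Gpm6a, and neither passed 2-fold. The collagen median at 12 weeks, 0.57, was close to that of the fibroblast markers and above those of the enzymes and receptors. That difference has no test here. Among the fibroblast markers, Thy1, Mfap4, Cd34 and Dpt were below 1 CPM in the control, so only a treated library kept them. Every kept collagen gene passed the filter in the control.

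**Figure D4:**
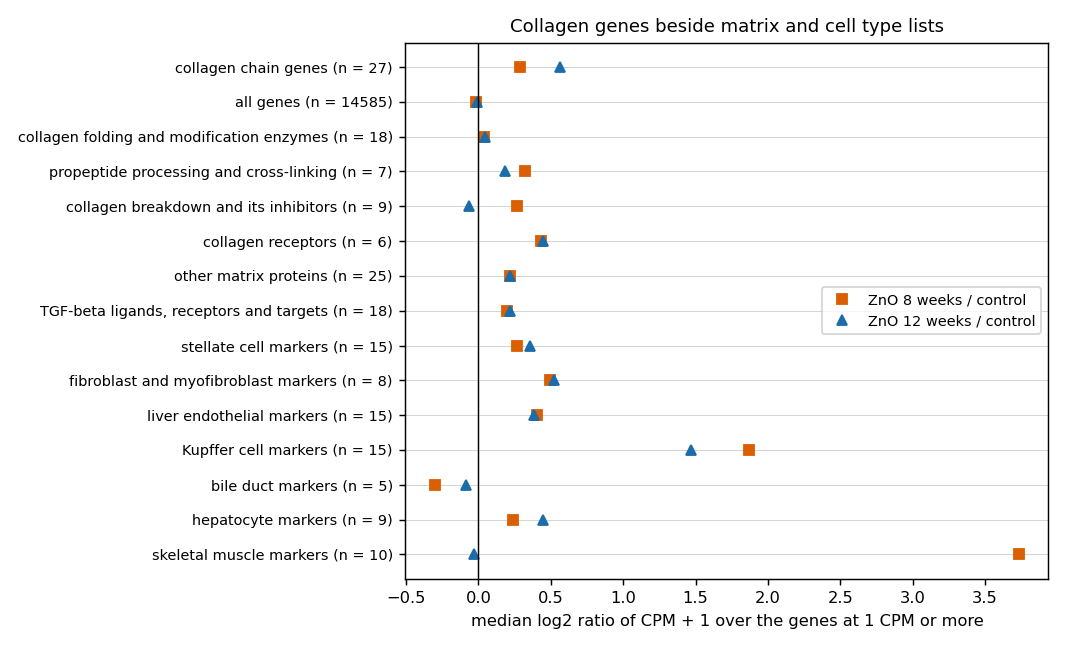
Median log2 ratio of CPM + 1 against the control at 8 weeks (orange squares) and 12 weeks (blue triangles) for the collagen genes, all genes and each list with at least 5 genes at 1 CPM or more, whose number is in parentheses. Collagen genes lie at 0.29 and 0.57, most matrix and mesenchymal lists between 0 and 0.6, and Kupffer cell and, at 8 weeks, muscle markers far to the right. The muscle markers other than Mylpf were kept through the 8-week library alone. The fibroblast markers Thy1, Mfap4, Cd34 and Dpt were kept only through treated libraries.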

How the data were processed

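The deposited files give each gene an estimated count that has not been scaled, as judged from the file headers and from values that are mostly whole with some fractions. TopHat2 2.1.0, Cufflinks 2.2.1.0 and the genome builds mm9 and mm10 appear in the submitters' processing notes, where no role is attached to them. The counting tool and strand setting are not given in the sources used here. All 44 collagen genes were found in GENCODE M21 (GRCm38), 43 with the same start and end. The exception was Col20a1.

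Counts were rounded, and libraries were scaled by TMM in edgeR 4.0.16 (R 4.3.3; factors 0.997, 1.005 and 0.999). Genes with 1 CPM in at least 1 library were kept. Ratios are of CPM + 1 and calls are at 2-fold, a rule of size. Intervals are of the count ratio without the added CPM, so a ratio understates the change of low genes and can lie below its interval's centre. Amplified reads are not independent molecules. The calculation was tested on simulated data. Python 3.11.15, numpy, pandas and scipy 1.17.1 were used.

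Every collagen gene at 1 CPM was named, up to 4 members past 2-fold of each of the 16 lists, or else up to 2 of the most abundant, Kupffer cell, muscle and hepatocyte markers being given as sums. P4ha2, P4hb, Serpinh1, Fn1, Tgfb1, Ctgf, Acta2 and the fibroblast markers named beside it were chosen after their values were seen. Members and lists were chosen with earlier results of these data known. Alternatives were other pseudocounts, filters, a 1.5-fold rule, total counts, DESeq2 1.42.0 size factors, unrounded counts and leaving out the 8-week library.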

Additional observations from a re-analysis of the deposited data

Results flagged for a closer look

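Col20a1 went in opposite directions at the 2 times. Its log2 ratio to the control was -1.32 at 8 weeks and 1.04 at 12 weeks, with both count ratio intervals clear of 0. The difference was not tested, since each group is 1 library, and both ratios share the control.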

How the results depend on the processing

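With 1 library per group, variation between animals is not measured, and most collagen chains had under 100 counts. The medians of the collagen genes kept their sign under every alternative run, which a change of the added CPM alone could not alter. With 0.5 CPM added, 2 genes were lower at 8 weeks, 4 were higher at 12 weeks and 2 were higher between 12 and 8 weeks. With 5 CPM added, 0 were higher and 0 lower at 8 weeks and 0 were higher at 12 weeks. With a filter of 5 CPM, 1 was higher at 12 weeks, since Col4a5 was not kept. At 1.5-fold, 7 were higher and 4 lower at 8 weeks, and 11 higher and 1 lower at 12 weeks. Between 12 and 8 weeks, 5 were higher and 2 lower. For the counts under these alternatives, the share of all genes past the same rule was not computed. They show only how the calls move with the settings. Without a filter the medians over all 44 genes were 0.14, 0.18 and 0.02. Scaling by total counts or DESeq2 size factors, unrounded counts and leaving out the 8-week library changed no count. Leaving out Col18a1 and Col27a1, a choice made after seeing the data, could change no count, since neither was past 2-fold. Without them the medians were 0.29 and 0.57 against the control at 8 and 12 weeks, and 0.28 between 12 and 8 weeks. Of 567 ratios of single genes under the alternatives, 10 left their counting interval, all with 5 CPM added. A change of the added CPM, the filter or the threshold cannot change the sign of a ratio. Under the other alternatives, 0 called values changed sign. No paired analysis was possible because each group has 1 library.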
